A study of Bos taurus with 20 samples.

Results

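The genes described here encode factors that store maternal mRNA in the growing oocyte and that remove it later. Of the 10 genes named (ZAR1, YBX2, CPEB1, DAZL, LSM14B, BTG4, CNOT7, PATL2, DCP1A, and PARN), 8 were found on the array by the gene name of a probe, out of 22550 genes or transcripts in all. CPEB1 and LSM14B were not analysed here. The 8 genes had 32 spots of 21 different probe sequences, each 60 bases long. Their expression was measured in bovine ovarian follicles of 3 to 6 mm from slaughtered animals, on 20 one-colour Agilent arrays with 200 ng of total RNA as input for Cy3 labelling. There were 4 replicates each of theca cells (TH, scraped from the follicle wall), granulosa cells (GC), cumulus cells of the immature complex (CC), cumulus cells after 4 h of in vitro maturation (IVM), and immature oocytes. No treatment other than the IVM is named, and neither the age nor the breed of the animals is given in the sources used here. The replicates of TH, GC, CC, and oocytes are called biological in the methods of the study, but what sets them apart is not described, so p-values measure the spread between these samples.

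An oocyte transcribes little once it is fully grown, and it relies on mRNAs that were made earlier, stored with short poly(A) tails and kept silent. RNA-binding proteins such as ZAR1, YBX2, DAZL, and PATL2 coat, stabilize, or silence these mRNAs. During meiotic maturation and after fertilization the stored mRNAs are translated and then cleared, first by removal of the poly(A) tail (CNOT7 in the CCR4-NOT complex, to which BTG4 recruits it, and PARN) and then by removal of the cap (DCP2 with its activator DCP1A).

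The probes are shown first because several results turn on them. The ZAR1 probes 1 and 2 detect the same stretch of the transcript and are no independent measures, and the BTG4, PATL2, and DCP1A probes are shown because the probes of these genes gave values of different size. Letters run from 5′ to 3′ as in the scanner files, at least 1 of the 3 forward reading frames of each is free of stop codons, and capitals mark a stretch of 15 or more bases shared with another probe of the gene. The transcripts lie, by the coordinates of the array annotation (UMD 3.1), at chr6:68820780-68824637 (ZAR1), chr15:22105614-22120867 (BTG4), chr10:104090288-104098110 (PATL2-201), chr10:104090546-104098734 (PATL2-202), and chr22:48203751-48247817 (DCP1A). The annotation gives the position of the whole transcript and not of the probe, its exon, or its strand.
ZAR1 probe 1 (transcripts 201 and 203): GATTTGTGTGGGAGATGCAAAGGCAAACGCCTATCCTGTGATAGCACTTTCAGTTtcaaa
ZAR1 probe 2 (transcript 202): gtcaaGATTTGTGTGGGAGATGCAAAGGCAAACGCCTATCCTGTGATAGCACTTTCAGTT
BTG4 probe 1: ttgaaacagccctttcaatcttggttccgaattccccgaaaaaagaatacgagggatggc
BTG4 probe 2: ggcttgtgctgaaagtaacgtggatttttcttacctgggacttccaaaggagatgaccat
PATL2 probe 2 (transcript 201): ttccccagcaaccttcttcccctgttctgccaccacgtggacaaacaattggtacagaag
PATL2 probe 3 (transcript 202): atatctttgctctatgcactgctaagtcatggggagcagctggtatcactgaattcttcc
PATL2 probe 4 (transcript 202): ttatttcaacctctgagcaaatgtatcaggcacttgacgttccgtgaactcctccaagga
DCP1A probe 2: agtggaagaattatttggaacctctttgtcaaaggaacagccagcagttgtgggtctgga

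The share of probes detected above background was 54.2 to 62.8% on somatic arrays and 49.3 to 68.8% on oocyte arrays, with the lowest share on oocyte replicate 2. The oocyte arrays were brighter, with a 75th percentile of the processed intensity of 1521 to 2891 against 284.5 to 1101 on the somatic arrays. Each intensity was therefore put on the log2 scale and set against its own array, so that a gene expression value of 0 is the 75th percentile of an array, and a gene has the median of its spots. Values of different genes come from different probes and were not compared with each other as levels. The 5 theca markers had their highest mean in TH, the 4 granulosa markers (FSHR, CYP19A1, AMH, INHBA) in CC or in CC after IVM, and the 6 oocyte markers (GDF9, BMP15, ZP2, ZP3, ZP4, NLRP5) in the oocyte. The summed level of the oocyte markers lay between 7.95 and 8.37 (log2) on oocyte arrays, between -0.83 and 1.59 on CC arrays, between -2.64 and -0.84 on CC arrays after IVM, between -1.45 and -0.58 on TH arrays, and between -2.49 and -1.32 on GC arrays. CC replicate 4 had the highest level of each of the 6 oocyte markers among the CC arrays. The summed granulosa markers lay between 1.14 and 1.6 on oocyte arrays and between 8.57 and 8.62 on CC arrays.

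**Figure D1:**
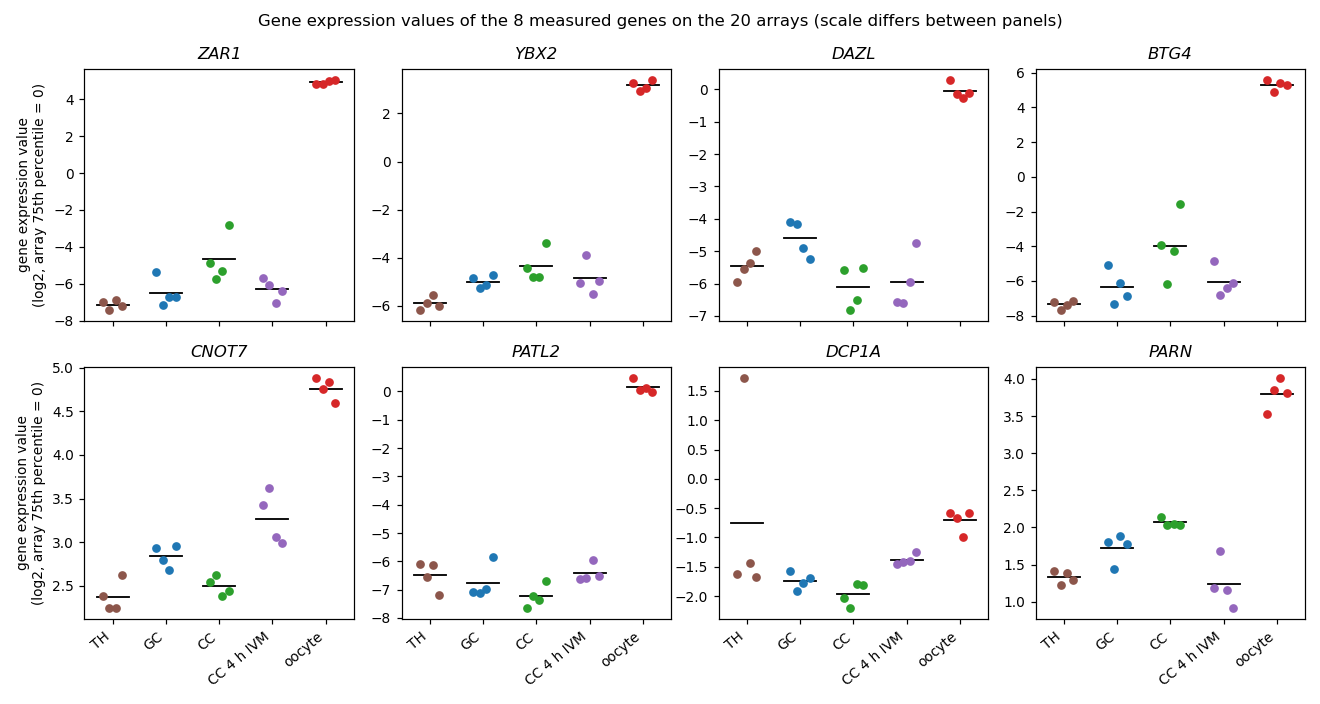
Gene expression value (vertical axis, log2, 0 at the 75th percentile of the array) of each of the 8 genes on each array, with 4 points per group (horizontal axis: TH, GC, CC, CC after 4 h IVM, oocyte) and a line at the group mean. The oocyte arrays lie above all 16 somatic arrays in each gene but DCP1A. There TH replicate 2, on which a DCP1A spot with an outlier mark was left out, is at 1.72.

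In the comparison of the oocyte with each somatic group, which asks in which compartment of the follicle these factors are expressed, ZAR1, YBX2, DAZL, BTG4, CNOT7, PATL2, and PARN were higher in the oocyte against all 4 groups (limma, adjusted p below the threshold of 0.05 over all genes). DCP1A was called against CC and not against TH, GC, or CC after IVM. The differences from CC, the group in which ZAR1 and BTG4 were above background on all arrays, were 6.05 to 9.61 on the log2 scale in ZAR1, YBX2, DAZL, PATL2, and BTG4, and 1.73 and 2.27 in PARN and CNOT7. However, DAZL was above background on 2 of 4 CC arrays. The only PATL2 probe above background in CC, probe 2, differed by 4.47. Thus 7 of the 8 genes were higher in the oocyte than in TH, where 31.9% of all genes were called higher and 32.1% lower. Likewise 7 of 8 were higher than in GC (30.1% of all genes higher, 39.7% lower), 8 of 8 than in CC (31.1% higher, 32.0% lower), and 7 of 8 than in CC after IVM (30.4% higher, 49.8% lower). No member had a lower mean in the oocyte than in a somatic group. In 7 of the 8 genes all 4 oocyte arrays were above all 16 somatic arrays, which was the case for 21.9% of all genes, while the reverse held for 18.2%. The median difference of the 8 genes was 6.03 against TH, 5.72 against GC, 6.72 against CC, and 6.24 against CC after IVM, and that of all genes was -0.42, -0.62, -0.4, and -0.8. These medians include values of somatic arrays that were not above background. The 4 comparisons share the oocyte arrays. In such bulk samples, fewer cells of a type and less RNA per cell cannot be told apart.

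**Figure D2:**
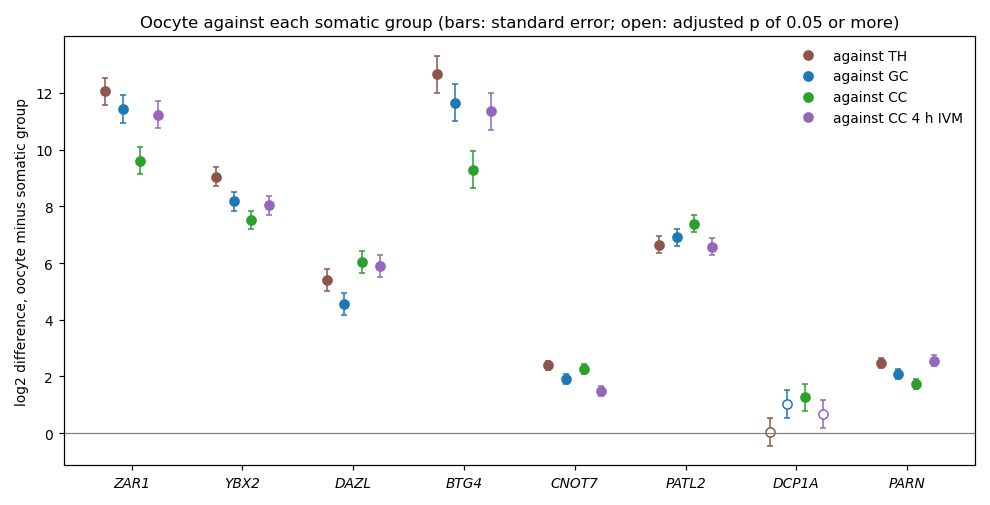
Difference in gene expression value (vertical axis, log2, oocyte minus somatic group) of the 8 genes (horizontal axis) against each of the 4 somatic groups, with n = 4 arrays a group, bars for the standard error of the limma fit, and open points where the adjusted p was 0.05 or more. ZAR1 and BTG4 differ from CC by 9.61 and 9.29, and CNOT7 and PARN differ from the 4 groups by 1.49 to 2.56, while the points of ZAR1 and BTG4 against TH rest on TH arrays that were not above background.

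Of the storage factors, ZAR1 (zygote arrest 1, an RNA-binding zinc finger protein of the oocyte) had gene expression values of 4.84, 4.82, 5.01, and 5.04 in the oocyte. It was at -7, -7.41, -6.88, and -7.22 in TH and at -5.39, -7.15, -6.73, and -6.73 in GC. It was at -4.86, -5.72, -5.32, and -2.81 in CC, and at -5.68, -6.07, -7.03, and -6.41 after IVM. The oocyte replicates were within 0.22 of each other and far above the others, and among the somatic arrays CC replicate 4 was the highest. No TH array had a ZAR1 probe above background, so against TH the gene was at least 1190-fold higher in the oocyte (measured difference 12.06, adjusted p = 4.1e-14). Here the bound sets the mean of the oocyte against the dimmest signal that passed the background flag on each TH array. The difference was 11.43 ± 0.48 (SE) against GC, where 3 of 4 arrays were above background, 9.61 ± 0.48 against CC, where all 4 were, and 11.23 ± 0.48 against CC after IVM, where 1 of 4 was. An array counts as above background here if any probe of the gene was. In GC only probes 3 and 4 were, on 2 and 1 arrays. After IVM only probes 1 and 2 were, on 1 array each. The differences from these 2 groups thus rest largely on background values. Among the somatic groups ZAR1 was lowest in TH and highest in CC, and neighbours in that order did not pass the test between TH and GC (adjusted p = 0.42) and between GC and CC after IVM (adjusted p = 0.79).

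The probes of ZAR1 differed in their detection in CC. All 5 sequences were called higher in the oocyte against each group, and those detected on at least 3 CC arrays (probes 1, 2, and 3) by 9.95, 9.89, and 9.73 against CC. In CC, probes 1 and 2, printed above, were above background on 4 of 4 arrays, and probe 3, of transcripts 201 to 203, on 3 of 4. Probes 4 and 5, of transcript 204, were above background on 1 of 4 CC arrays each. Repeated spots of a ZAR1 probe were within 0.2 of each other on the oocyte arrays, and up to 2.86 apart over all arrays.

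YBX2, a cold-shock domain protein that packages mRNA in germ cells, was at 3.27, 2.94, 3.08, and 3.39 in the oocyte. It was at -6.16, -5.87, -5.54, and -5.99 in TH, at -4.85, -5.27, -5.15, and -4.72 in GC, at -4.42, -4.79, -4.81, and -3.37 in CC, and at -5.06, -3.89, -5.52, and -4.98 after IVM. All somatic arrays were more than 6 log2 units below the oocyte, with CC replicate 4 again the highest. The difference was 9.05 ± 0.32 against TH, 8.17 ± 0.32 against GC, 7.52 ± 0.32 against CC, and 8.03 ± 0.32 against CC after IVM (adjusted p between 9.5e-15 and 1.3e-13). These values are a mean of 2 probes that behaved differently. Probe 1 was above background on all 20 arrays and gave 9.83, 8.29, 7.69, and 8.32 against the same groups, while probe 2 was above background on none of the 16 somatic arrays. The order of the somatic groups was that of ZAR1, and YBX2 was lower in TH than in CC by 1.54 (adjusted p = 0.00099).

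DAZL, an RNA-binding protein of germ cells that promotes the translation of maternal mRNAs, was at 0.29, -0.14, -0.28, and -0.11 in the oocyte. It was at -5.96, -5.54, -5.36, and -5.01 in TH, at -4.09, -4.17, -4.89, and -5.25 in GC, at -5.59, -6.81, -6.51, and -5.53 in CC, and at -6.56, -6.59, -5.94, and -4.76 after IVM. The gap between the oocyte and the nearest somatic array, in GC, was smaller than in ZAR1 or YBX2. The difference was 4.54 ± 0.39 against GC (adjusted p = 3.4e-09), 5.41 ± 0.39 against TH, 5.9 ± 0.39 against CC after IVM, and 6.05 ± 0.39 against CC (adjusted p = 4.7e-11). Thus DAZL had another order than ZAR1 and YBX2, with GC the highest of the somatic groups. It was higher in GC than in CC by 1.51 (adjusted p = 0.019) with no overlap of the arrays, but DAZL was above background on 3 of 4 GC arrays, 2 of 4 CC arrays, and 1 of 4 CC arrays after IVM. Both probes of DAZL were called higher in the oocyte against each group. Probe 1 gave 5.35 against TH, where it was above background on all 4 arrays, and 4.67 against GC, where it was on 3, while probe 2 was above background on no array of TH, CC, or CC after IVM and on 2 of GC.

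PATL2, the oocyte member of a family of proteins that repress translation together with the helicase DDX6, was at 0.47, 0.05, 0.11, and -0.02 in the oocyte. It was at -6.1, -6.57, -6.13, and -7.19 in TH, at -7.07, -7.12, -6.96, and -5.86 in GC, at -7.64, -7.24, -7.37, and -6.68 in CC, and at -6.61, -6.58, -5.97, and -6.53 after IVM. The somatic groups overlapped except CC and CC after IVM, and all were far below the oocyte. The difference was 6.65 ± 0.3 against TH, 6.91 ± 0.3 against GC, 7.39 ± 0.3 against CC, and 6.58 ± 0.3 against CC after IVM (adjusted p between 5.4e-14 and 2.7e-13). In order, CC after IVM, TH, GC, and CC did not differ between neighbours (adjusted p = 0.85, 0.62, and 0.42). Of the 4 PATL2 probes, probe 2 was above background on at least 3 arrays of each somatic group, and it gave differences of 5.08 against TH, 4.78 against GC, 4.47 against CC, and 4.83 against CC after IVM. Probes 1 and 3 were above background on at most 1 of the 16 somatic arrays, and probe 4 on 3.

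Of the decay factors, BTG4, the adaptor that brings the CCR4-NOT deadenylase to maternal mRNAs, was at 5.58, 4.89, 5.41, and 5.32 in the oocyte. It was at -7.22, -7.66, -7.37, and -7.14 in TH, at -5.11, -7.32, -6.11, and -6.89 in GC, at -3.94, -6.16, -4.26, and -1.59 in CC, and at -4.88, -6.8, -6.41, and -6.12 after IVM. CC replicate 4 was the highest somatic array, as in ZAR1, and the CC arrays spread over more than 4 log2 units. No TH array had a BTG4 probe above background, and against TH the gene was at least 1540-fold higher in the oocyte (measured difference 12.65, adjusted p = 2.4e-12). The difference was 11.66 ± 0.66 against GC (1 of 4 arrays above background), 9.29 ± 0.66 against CC (4 of 4), and 11.35 ± 0.66 against CC after IVM (1 of 4). Without CC replicate 4 the difference from CC was 10.09. The order of the somatic groups was that of ZAR1 and YBX2, with adjusted p = 0.77 between CC after IVM and GC and 0.34 between GC and TH. The 2 probes printed above were both called against each group, and against CC, where they were above background on 4 and 3 arrays, by 8.93 and 9.65. Neither was above background on a TH array.

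CNOT7, a catalytic subunit of the CCR4-NOT deadenylase, was above background on all 20 arrays. It was at 4.88, 4.75, 4.83, and 4.59 in the oocyte, at 2.38, 2.25, 2.25, and 2.62 in TH, at 2.94, 2.8, 2.68, and 2.96 in GC, at 2.54, 2.63, 2.38, and 2.44 in CC, and at 3.43, 3.62, 3.06, and 2.99 after IVM. Thus the somatic groups were close together, and the oocyte was above all of them by a moderate amount. The difference was 2.39 ± 0.17 against TH, 1.92 ± 0.17 against GC, 2.27 ± 0.17 against CC, and 1.49 ± 0.17 against CC after IVM (adjusted p between 2e-10 and 1.9e-07), which is 2.81- to 5.24-fold. CC after IVM were next to the oocyte, followed by GC, CC, and TH, and neighbours did not pass the test (adjusted p = 0.068, 0.28, and 0.7). The 2 probes of CNOT7 share 37 bases and agree within 0.26 in each group.

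PARN, a poly(A)-specific ribonuclease, was also above background on all arrays. It was at 3.53, 3.85, 4.01, and 3.81 in the oocyte, at 1.42, 1.23, 1.39, and 1.3 in TH, at 1.8, 1.44, 1.88, and 1.78 in GC, at 2.14, 2.04, 2.05, and 2.04 in CC, and at 1.18, 1.69, 1.16, and 0.92 after IVM. The 4 CC arrays were closer to each other than those of any other group and were all above the TH arrays. The difference was 2.47 ± 0.18 against TH, 2.08 ± 0.18 against GC, 1.73 ± 0.18 against CC, and 2.56 ± 0.18 against CC after IVM (adjusted p between 1.2e-10 and 3.8e-08), which is 3.32- to 5.92-fold. PARN was lower in TH than in CC by 0.73 (adjusted p = 0.003), while GC lay between them without passing the test against either (adjusted p = 0.13 and 0.3). Its 2 probes share 45 bases.

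DCP1A, the activator of the decapping enzyme DCP2, was at -0.58, -0.67, -1, and -0.58 in the oocyte. It was at -1.63, 1.72, -1.43, and -1.68 in TH, at -1.57, -1.91, -1.78, and -1.7 in GC, at -2.04, -2.2, -1.79, and -1.81 in CC, and at -1.46, -1.42, -1.41, and -1.24 after IVM. The oocyte arrays were above all arrays of GC, CC, and CC after IVM, and above 3 of the 4 TH arrays. TH replicate 2 stood apart, and it was the array on which a DCP1A spot (probe 2, at -2.73) carried an outlier mark and was left out. The 2 probes of DCP1A lie 6.89 to 7.71 log2 units apart within a group, so the median over 4 spots falls between them and moves when a spot is missing. The difference was 0.05 ± 0.49 against TH (adjusted p = 0.93), 1.03 ± 0.49 against GC (adjusted p = 0.068), 1.26 ± 0.49 against CC (adjusted p = 0.033), and 0.68 ± 0.49 against CC after IVM (adjusted p = 0.21). With the marked spot kept, it was 0.6 against TH (adjusted p = 0.021), 1.03 against GC (0.00037), and 0.68 against CC after IVM (0.0097). Without TH replicate 2, it was 0.87 against TH (adjusted p = 0.00026) and the other 3 differences passed too. The call against CC was lost without CC replicate 1 or 2 or oocyte replicate 1 or 4 (1.18 to 1.23, adjusted p = 0.062 to 0.072), and with normexp background correction it was 0.36 (adjusted p = 0.32). Over the alternatives, DCP1A was called higher in 5 of 37 against TH (-0.67 to 1.05), 9 of 37 against GC (0.27 to 1.21), 29 of 37 against CC (0.36 to 1.5), and 6 of 34 against CC after IVM (-0.03 to 0.92).

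Each probe of DCP1A by itself was called higher in the oocyte against all 4 groups. Probe 1, above background on all arrays, was higher by 1.03 ± 0.15 against TH, 1.06 ± 0.15 against GC, 0.89 ± 0.15 against CC, and 0.66 ± 0.15 against CC after IVM (adjusted p between 6.9e-06 and 0.001). Probe 2, the sequence printed above, was higher by 1.15, 1.29, 1.72, and 0.86, and it was above background on 3 of 4 oocyte arrays, 3 of 4 TH arrays, and 1 of 4 arrays of each other group. These probe values were chosen for a closer look after the gene values were seen.

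Among the somatic groups the differences were smaller. Between TH and GC, where 11.1% of all genes were called higher in TH and 12.5% higher in GC, 0 of the 8 genes were called, and 4 had an unadjusted limma p below 0.05. Between TH and CC, 4 were called, and these (ZAR1, YBX2, BTG4, and PARN) were all higher in CC, as were 15.6% of all genes, while 13.3% of all genes were higher in TH. Between GC and CC, where 4.44% of all genes were higher in CC and 3.62% in GC, 3 were called. ZAR1 was higher in CC by 1.82 (adjusted p = 0.022), BTG4 was higher in CC by 2.37 (adjusted p = 0.032), and DAZL was higher in GC. However, ZAR1 was above background on 3 of 4 GC arrays and BTG4 on 1 of 4. CC replicate 4 was the highest CC array in both, and these 2 differences were not examined without it. The TH and CC arrays did not overlap in ZAR1, YBX2, BTG4, and PARN, nor in DCP1A, which was not called. The GC and CC arrays overlapped in ZAR1 and BTG4. They did not overlap in DAZL, nor in CNOT7 and PARN, which were not called. The share of all genes without overlap was not counted. No TH array was above background in ZAR1 and BTG4. The mean of the 4 CC arrays was thus at least 1.53-fold higher than TH in ZAR1 and at least 2.46-fold higher in BTG4. These bounds lean on CC replicate 4, at -2.81 in ZAR1 and -1.59 in BTG4. The other CC arrays lay between -5.72 and -4.86 in ZAR1 and between -6.16 and -3.94 in BTG4. No bound was computed without CC replicate 4.

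**Figure D3:**
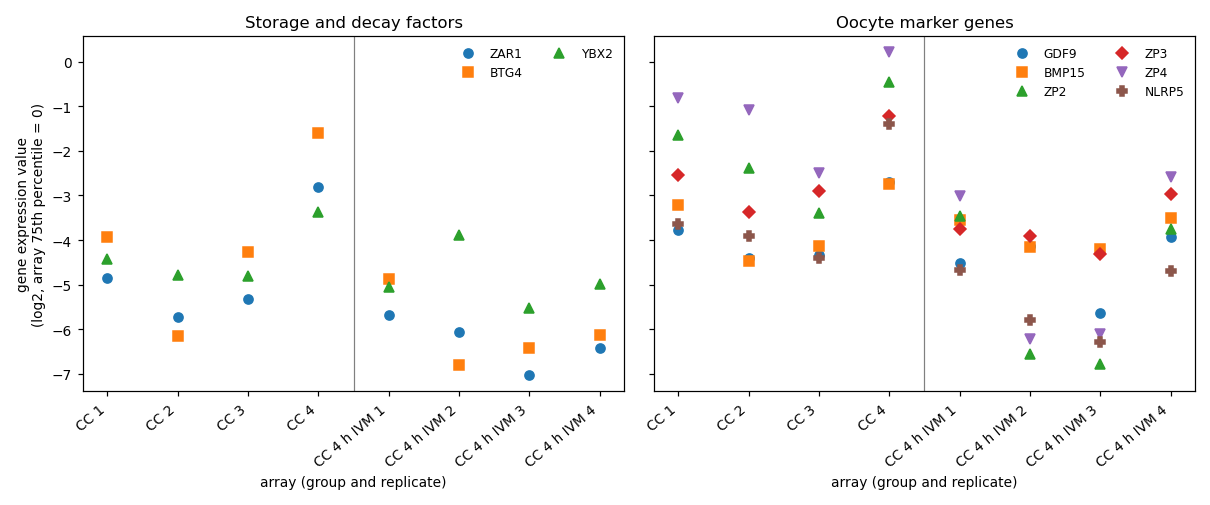
Gene expression value (vertical axis, log2, 0 at the 75th percentile of the array) of ZAR1, BTG4, and YBX2 (left) and of 6 oocyte marker genes (right) on the 4 CC arrays and the 4 arrays of CC after IVM (horizontal axis), with 1 point per gene and array. CC replicate 4 is the highest array in ZAR1 (-2.81), BTG4 (-1.59), YBX2 (-3.37), and all 6 markers.

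Markers of the oocyte were highest on the same CC array as ZAR1, BTG4, and YBX2. On CC replicates 1 to 4 the summed level of the 6 oocyte markers was 0.41, -0.12, -0.83, and 1.59, and all 6 were above background on each of these arrays. On the arrays of CC after IVM it was -1.13, -2.17, -2.64, and -0.84, with 5, 3, 2, and 6 markers above background, and there the array with the highest sum was not the highest in ZAR1, BTG4, or YBX2. ZP4, a protein of the zona pellucida, was at -0.81, -1.08, -2.49, and 0.21 in CC and at -3.01, -6.22, -6.11, and -2.59 after IVM. The part of oocyte RNA in the values of ZAR1, BTG4, and YBX2 in CC was not tested. Without CC replicate 4, the oocyte was higher than CC by 10.23 in ZAR1, 10.09 in BTG4, and 7.84 in YBX2.

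The comparison of CC after 4 h of IVM with CC asks how the first hours of maturation change cumulus expression. CNOT7 rose by 0.78 ± 0.17 (adjusted p = 0.0014) and PARN fell by 0.83 ± 0.18 (adjusted p = 0.001), with no overlap of the arrays in either. ZAR1 fell by 1.62 ± 0.48 (adjusted p = 0.013) and BTG4 fell by 2.06 ± 0.66 (adjusted p = 0.021), with overlapping arrays. PATL2 rose by 0.81 ± 0.3 (adjusted p = 0.042). Its arrays did not overlap either, nor did those of DCP1A, which was not called. The share of all genes without overlap between CC and CC after IVM was not counted, so these overlaps have no reference. The other differences were -0.51 in YBX2 (adjusted p = 0.21, and -0.84 with adjusted p = 0.036 without replicate 2 of CC after IVM), 0.15 in DAZL (0.78), and 0.58 in DCP1A (0.35). So 2 of the 8 genes were called higher, where 20.2% of all genes were, and 3 lower, where 15.6% were, and the median of the 8 was -0.18 against 0.37 over all genes. In the 9531 genes detected on every array that median was -0.01.

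Of these changes, those of CNOT7 and PARN were found by both probes of each gene, 0.76 and 0.79 in CNOT7, and -0.85 and -0.82 in PARN. With the deposited table the difference in CNOT7 was 0.31 and did not pass (adjusted p = 0.11). The difference in BTG4 was -1.26 without CC replicate 4 (adjusted p = 0.083) and -1.81 without replicate 2 of CC after IVM (adjusted p = 0.065), and it was -0.18 with normexp background correction (adjusted p = 0.6) and -2.06 with adjusted p = 0.063 in a fit of these groups alone. The difference in ZAR1 was -0.99 without CC replicate 4 (adjusted p = 0.043), 0.23 with normexp (0.35), -0.29 with the deposited table (0.25), -1.1 with the mean over probes (0.075), and -1.54 with the brightest probe (0.2). By themselves, 1 of 5 probes of ZAR1 and 1 of 2 probes of BTG4 were called lower. In PATL2 none of the 4 probes was called by itself, and the only probe that was above background in most arrays of both groups, probe 2, differed by -0.36 (adjusted p = 0.29). The call of PATL2 was lost on leaving out any single array of CC or of CC after IVM except CC replicate 4 (0.66 to 0.87, adjusted p = 0.051 to 0.12). All 4 arrays of CC after IVM, and no others, were on slide 3, so that slide and maturation cannot be told apart. The same holds for slide and cell type in the comparison of the oocyte with CC after IVM.

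Several of the genes have paralogs, some of them used more widely, and 9 pairs could be compared by the difference between the 4 oocyte and the 16 somatic arrays (the exact two-sided permutation test over arrays allows no p below 0.00041). The 16 arrays come from 4 different groups and are not replicates of 1 condition. The lowest p therefore states only that all 4 oocyte arrays lay to 1 side of all somatic arrays. The differences of ZAR1, YBX2, DAZL, PATL2, and BTG4 include somatic probe values that were not above background, so their sizes are not exact. BTG4 was above background on no TH array and on 1 array each of GC and CC after IVM. The PATL2 probe detected in every group, probe 2, gave differences of 4.47 to 5.08. In 4 genes the oocyte difference was larger than that of each paralog. YBX2 differed by 8.19 and YBX1, the cold-shock protein of most cells, by 0.36 (exact permutation p = 0.00041). PATL2 differed by 6.88 and PATL1 by 0.1 (exact permutation p = 0.00041). BTG4 differed by 11.24, whereas its relatives BTG1, BTG2, and BTG3, which also bind the deadenylase, were lower in the oocyte by limma against each group, with differences of -2.95, -4.21, and -6.73 (exact permutation p = 0.00041 each for the difference from BTG4). DCP1A differed by 0.75 and DCP1B, the other activator of DCP2, by -6.49 (exact permutation p = 0.00041).

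In the other 3 pairs the paralog was higher in the oocyte too or its probes disagreed. ZAR1L differed by 10.33 against 11.08 in ZAR1, and the difference between them, 0.75, did not pass (exact permutation p = 0.11). With the deposited table it was -0.6 (exact permutation p = 0.012), so that its direction differs with the processing. BOLL, a germ cell protein of the DAZ family that was above background on 1 array each of CC and CC after IVM and on no TH or GC array, was at least 13.7-fold higher in the oocyte than in TH and at least 11.5-fold higher than in GC. Since most of its somatic values are background, its measured difference from DAZL (-0.19, exact permutation p = 0.69, and 0.9 with the deposited table, exact permutation p = 0.00083) does not show whether the 2 genes differ alike. CNOT8, the other catalytic subunit of this kind, differed by 1.05 against 2.02 in CNOT7 (exact permutation p = 0.16), but its 2 probes gave -0.56 and 2.67. No p-value of the 9 pairs was adjusted for their number.

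**Figure D4:**
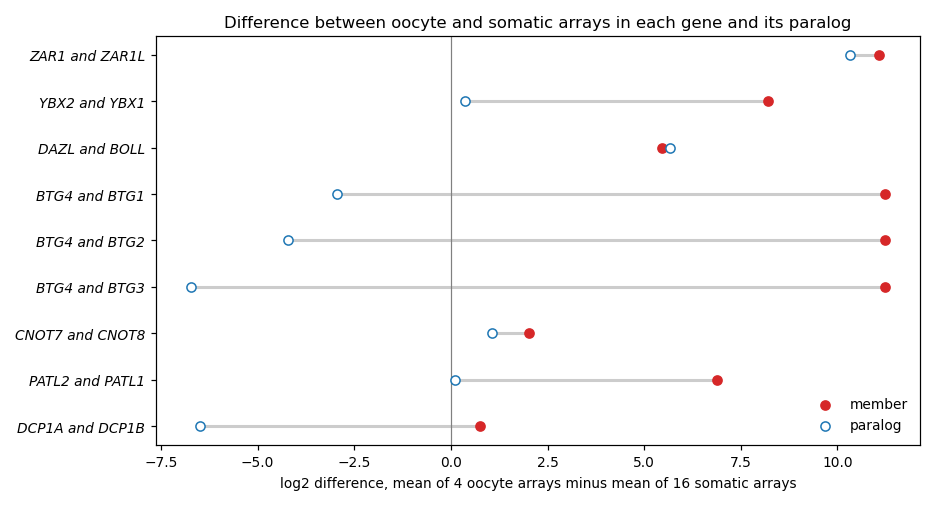
Difference between the mean of the 4 oocyte arrays and the mean of the 16 somatic arrays (horizontal axis, log2) of each gene (filled) and of its paralog (open), in 9 pairs (vertical axis). BTG4 is at 11.24 and BTG1, BTG2, and BTG3 are between -6.73 and -2.95, whereas ZAR1 and ZAR1L are at 11.08 and 10.33. Several somatic means, among them those of BTG4, PATL2, and ZAR1, include probe values that were not above background.

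Other genes of these pathways were taken from 5 lists of 86 symbols, of which 75 were on the array. Of the 75, 43 were called higher and 18 lower in the oocyte than in TH, 40 and 19 than in GC, 39 and 20 than in CC, and 41 and 20 than in CC after IVM, with the shares of all genes as given above. Against all 4 somatic groups together, 32 of the 75 were higher (23.3% of all genes) and 14 lower (22.5% of all genes). The median difference from the mean of the 4 somatic groups was 0.8, and over all genes -0.6.

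Of 23 genes of storage and repression, 10 were higher and 5 lower than in all 4 somatic groups (23.3% and 22.5% of all genes). The median was 1.59. ZAR1L differed by 10.33 from the somatic mean, and IGF2BP3, which binds and stabilizes mRNAs, by 10.13. CAPRIN1, a protein of stress granules, differed by -5.19, and both of its probes were lower than in all 4 groups. Of the relatives of CPEB1, which binds the cytoplasmic polyadenylation element, CPEB3 and CPEB4 were higher than in all 4 groups, with differences of 3.09 and 3.31. CPEB2 differed by -0.71 and was called lower against TH and GC, and LSM14A, a relative of LSM14B, differed by 0.48 and was called higher against TH and GC.

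Of 12 genes of cytoplasmic polyadenylation and poly(A) binding, 7 were higher and 2 lower than in all 4 somatic groups. Of all genes, 23.3% were higher and 22.5% lower. The median of the list was 1.5. The poly(A)-binding protein genes were split. PABPN1L was above background on none of the arrays of TH, GC, or CC after IVM and was at least 281-fold higher in the oocyte than in each, and PABPC1L, the embryonic form, differed by 4.42. PABPC1, the common cytoplasmic form, differed by -2.31. CPSF1, a subunit of the cleavage and polyadenylation factor, differed by -1.37.

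Of 21 genes of deadenylation, 6 were higher and 4 lower, with a median of 0.37. These counts are near the shares of all genes (23.3% higher and 22.5% lower than in all 4 somatic groups). CNOT6L, a catalytic subunit of CCR4-NOT, differed by 3.78 and CCRN4L (nocturnin) by 3.14, while BTG3 and BTG2 were lower. Of 13 genes of decapping and decay from the 5′ end, 7 were higher and 2 lower, with a median of 0.95. LSM3 and LSM1, of the ring of proteins that binds shortened mRNA, differed by 2.78 and 1.87, whereas LSM6 of the same ring differed by -2.32 and DCP1B by -6.49. Of 6 genes of uridylation and other decay, 2 were higher and 1 lower, with a median of -0.48, and the 2 were PNLDC1 (6.19) and TOE1 (2.3), exonucleases related to PARN. Of the listed genes named here as called against all 4 groups, CPEB4 had 2 of its 4 probes called against all groups, and each of the others had both of its probes called so in the same direction.

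**Figure D5:**
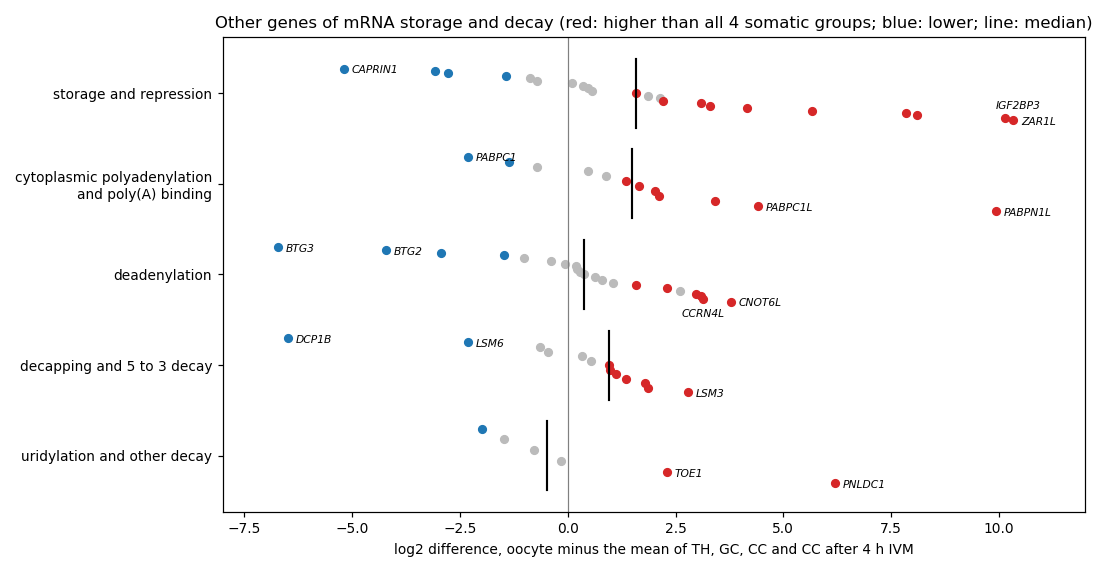
Difference between the oocyte and the mean of the 4 somatic groups (horizontal axis, log2) of the other genes, 1 point per gene, in 5 lists (vertical axis), red where called higher and blue where called lower than all 4 groups, with a line at the median of the list and 1 gene of the first list not drawn. The medians lie between -0.48 and 1.59, and the genes drawn between BTG3 at -6.73 and ZAR1L at 10.33.

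After IVM, 17 of the 75 genes were called higher in CC, against 20.2% of all genes, and 15 lower, against 15.6%, with a median difference of 0.1 against 0.37 over all genes. The antiproliferative genes BTG1, BTG2, and BTG3 rose together by 1.99, 1.8, and 1.97 (adjusted p = 3.2e-07, 0.0042, and 5.8e-07). ZFP36L1, which recruits deadenylases to AU-rich mRNAs, rose by 3.06 (adjusted p = 1.3e-07). Its relative ZFP36 fell by 3.7 (adjusted p = 5.3e-09), and ZFP36L2, above background on no array after IVM, was at least 1.34-fold lower (adjusted p = 0.00047). CPEB3 was above background on 4 CC arrays and on none after IVM, so that it was at least 2.55-fold lower (adjusted p = 1.4e-08). ZAR1L fell by 2.88 (adjusted p = 2.7e-05) and IGF2BP3 by 1.43 (adjusted p = 0.029). Both changes had the direction of ZAR1, BTG4, and the oocyte markers. After IVM, ZAR1L was above background on 2 of 4 arrays and IGF2BP3 on 3 of 4, so these sizes rest partly on background values. Of the others that rose, CNOT4, ZCCHC6, PABPC1L, LSM1, SAMD4A, RQCD1, YBX1, PABPC1, PAPD4, and XRN2 rose by 0.44 to 1.31. SAMD4B rose by 2.33, but it was above background on 1 of 4 CC arrays before IVM. By single probes, 1 of 2 was called higher in LSM1, SAMD4A, and RQCD1, and 1 of 4 in PAPD4. IGF2BP2 and BOLL were called higher too, but IGF2BP2 was above background on no CC array before or after IVM, and BOLL on 1 of each. Those that fell besides, DIS3L2, MARF1, CNOT8, EIF4ENIF1, PAN2, DCP1B, PATL1, EDC4, TOE1, and PABPC4, fell by 0.68 to 1.71. In EIF4ENIF1, IGF2BP3, and ZFP36L2, only 1 of 2 probes was called lower by itself.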

How the data were processed

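The values came from 20 one-colour Agilent arrays (Agilent Feature Extraction 10.7.3.1, per the labels), 4 for each of 5 groups. The authors deposited, per the file headers, the processed intensity of each spot with its flags, and a table of log2 values. That deposited log2 table equals log2 of the median signal minus the median of the array, without background subtraction, to within 5.0e-09 on every array. Groups were taken from the sample titles.

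Of 61325 non-control probes, 9779 had no gene name and 734 were named by an accession. Spots with an outlier mark were left out, the processed intensity was put on a log2 scale with the 75th percentile of each array subtracted, and the median over the spots of a gene was used, as in the methods of the study, for 22550 genes or transcripts. A probe was above background where the scanner flag said so, and a gene where any of its probes was. All 20 arrays entered 1 limma fit (lmFit and eBayes, limma 3.58.1, R 4.3.3), and p-values were adjusted over all genes by Benjamini-Hochberg with a threshold of 0.05. Single probe sequences were tested in a fit of their own over 51307 sequences. Paralogs were compared by exact permutation over arrays (SciPy 1.17.1). The scripts were tested on simulated data.

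The members and gene lists were chosen with earlier results of these data known. The text names every member, every paralog, every listed gene called after IVM, and of each list up to 4 genes called in 1 direction against all 4 groups, with oocyte arrays outside the somatic range and the largest difference from the somatic mean, taken from each direction in turn, apart from 1 gene of the storage list that is not reported here. The alternatives were other normalizations, background correction, the deposited table, the summary over probes, a filter on dim genes, the samples fitted, the replicate number and the slide as blocks, array weights, eBayes settings, and leaving out each array. Keeping the marked spots and testing single probes were added after the data were seen. The number of arrays limits the precision. Positions are those in the scanner files.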

Additional observations from a re-analysis of the deposited data

Results flagged for a closer look

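Among 85 sets of 4 replicates of a member or a paralog, 7 held an array far from the other 3 by Dixon's gap criterion, and chance gives this in about 1 in 20 sets. Of the members, PATL2 was at -5.86 in GC replicate 4 (others -7.12 to -6.96) and at -5.97 in replicate 3 of CC after IVM (others -6.61 to -6.53). DCP1A was at 1.72 in TH replicate 2 (others -1.68 to -1.43), where a marked spot was left out. PARN was at 2.14 in CC replicate 1 (others 2.04 to 2.05), a small distance among arrays that were close together. Of the paralogs, YBX1 was at 4.44 in CC replicate 1 (others 4.68 to 4.72), BTG3 at 1.81 in replicate 2 of CC after IVM (others 2.02 to 2.05), and PATL1 at 0.15 in CC replicate 3 (others 0.38 to 0.42).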

How the results depend on the processing

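The 7 members other than DCP1A were called higher in the oocyte against TH, GC, and CC under all 37 alternatives. Against CC after IVM they were called higher in the 34 alternatives that included this group. The count was thus 7 or 8 throughout, also on leaving out each array. DCP1A decided between these counts. In CC after IVM against CC, the number of members called higher was 1 with quantile normalization, with the percentile over probes detected on all arrays, with the mean over probes, with the brightest probe, and with trended and robust eBayes, and 1 to 3 on leaving out single arrays. The number called lower was 1 with normexp. Of the listed genes, 29 were higher with normexp and 25 lower with the deposited table. ZAR1 changed sign in this comparison with normexp (0.23) and with probe 5 (0.1), and PATL2 with the brightest probe (-0.29) and with probe 2 (-0.36). ZAR1 minus ZAR1L was -0.85 with normexp and -0.6 with the deposited table (0.69 to 0.9 on leaving out single arrays). DAZL minus BOLL was 1.09 and 0.9, and CNOT7 minus CNOT8 was 2.09 and 1.8, and 2.63 with the brightest probe (0.88 to 1.18 on leaving out single arrays). Without replicate 2 of CC after IVM the first and the last of these pairs passed by the exact permutation test (0.9 and 1.18). The cause was not tested.

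Whether the replicate numbers pair the samples was not settled by the values. Over 9531 genes, 40 pairs of arrays with the same number correlated at -0.26 to 0.44 (median 0.03), 16 of them over 0.1. The median over 120 pairs with different numbers was 0.01, and 9 of 20 arrays correlated best with their own number. With the replicate number as a block, 7, 7, 8, and 7 members were higher in the oocyte against TH, GC, CC, and CC after IVM, and 1 after IVM against CC, where PATL2 was at 0.81 (adjusted p = 0.057).

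The share of higher among called genes, oocyte against TH, GC, CC, and CC after IVM, was 49.8, 43.1, 49.3, and 37.9%. It was 27.2, 24.7, 26.1, and 23.2% with normexp. It was 39.2% against TH and 36.8% against CC with the deposited table, 38.4% against TH with the percentile over detected probes, and 52.1% against CC after IVM with quantile normalization. For CC after IVM against CC it was 56.5%, and 83.2% with normexp and 43.4% with quantile normalization. Quantile normalization moved the median of all genes from -0.42 to 0.04 against TH, and normexp to -1.16.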
